A study of Ovis aries with 18 samples.

Results

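The pars tuberalis (PT) of sheep held for 22 weeks on long photoperiod (LP22) was compared with that of sheep held for 4 weeks on short photoperiod (SP4). All animals were castrated male Scottish Blackface sheep, and short photoperiod (SP) was 8 h of light and 16 h of dark, long photoperiod (LP) the reverse. The comparison was chosen by the group named in the sample titles and took 9 of the 18 sequenced libraries, 4 from LP22 and 5 from SP4, because sample 1 of SP4 had a repeat library. Summing that pair gave 8 of the 16 animals of the series, 4 in each group; the other 8 had 4 weeks of LP (LP4) or 16 weeks of SP (SP16). The titles speak of samples, and each was taken as 1 animal. LP22 stood for a long summer day length kept up for months and SP4 for the early weeks of an autumn day length. Light and time of exposure both differed between the groups, so their parts in any change cannot be told apart, and different animals stood at each end.

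The PT is a thin sheet of pituitary tissue wrapped around the stalk below the hypothalamus. Its thyrotroph cells carry melatonin receptors, and the length of the nightly melatonin signal tells them the length of the night. On long days these cells make thyroid-stimulating hormone, which acts on tanycytes lining the third ventricle and raises the local supply of active thyroid hormone in the hypothalamus. The PT is also known to govern the seasonal release of prolactin, and after many weeks of constant light schedule sheep drift out of the season that the light dictates, a state called refractoriness. An animal on prolonged LP can therefore be anywhere between a full summer state and a return to a winter-like state.

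Total gene counts per animal ran from 1746861 to 2824849 in LP22 and from 2008884 to 5850281 in SP4, where the highest total was that of animal 1 with its repeat library. Genes took 15.3% to 18.6% of aligned reads in the 9 libraries. No pair of the 18 libraries held identical counts (0 pairs). Genes are given by Ensembl ID. Names were sought in the deposited files and the reference gene table alone; the files pair no ID with a name and 0 of 25197 IDs matched the table. Markers of PT thyrotrophs, of neighbouring pituitary cells and of hypothalamus were therefore not looked up here, and the tissue label was not checked against them. In bulk tissue, fewer cells of a type and less RNA per cell cannot be told apart.

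Of 12315 genes with enough counts to test, 348 changed between LP22 and SP4 at a false discovery rate (FDR) under 0.05 by edgeR's quasi-likelihood test, which is 2.83% of those tested. Higher levels in LP22 were the commoner direction, with 227 genes (1.84% of those tested) against 121 lower (0.983%). Levels are given as CPM, a gene's counts rescaled to a library size of 1000000 with TMM factors. The fit used only these 8 animals. The median log2 fold change of all tested genes was −0.0008, with quartiles of −0.17 and 0.17; TMM scaling itself sets the centre near 0. An unadjusted p under 0.05 was found for 1959 genes. At an FDR under 0.01, 135 genes remained, 89 higher and 46 lower.

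**Figure D1:**
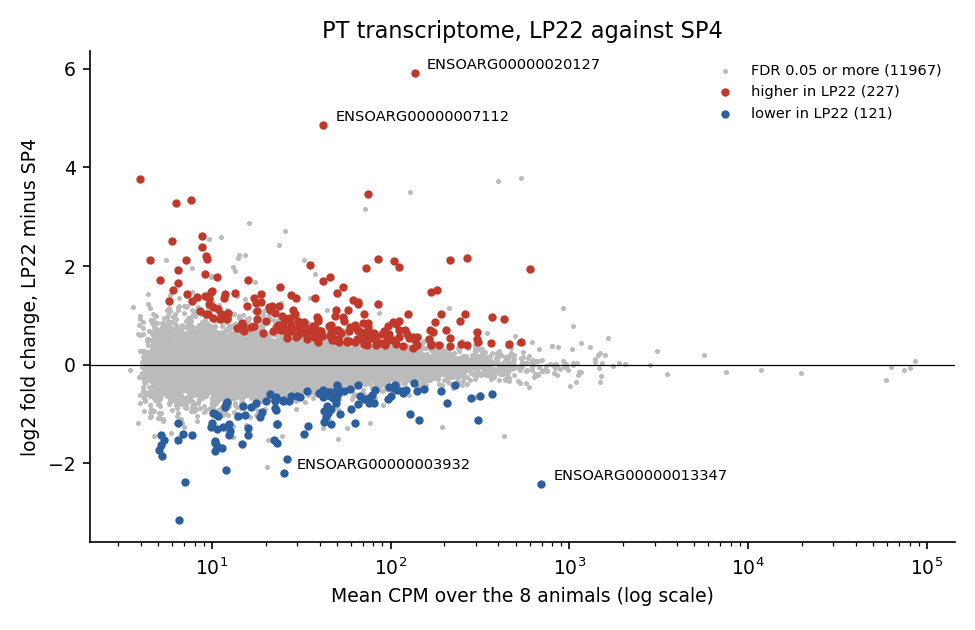
Each point is a gene, with its mean CPM over the 8 animals on a log axis and its log2 fold change (LP22 minus SP4) on the other. Red points are the 227 genes higher in LP22 and blue points the 121 lower; the 4 labelled genes were taken by rule. The widest changes lay on the side of higher levels in LP22, up to a log2 fold change of 5.91.

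Most changes were modest in size. The genes higher in LP22 had a median fold of 1.75, with a median standard error of 0.15 on the log2 scale, and those lower had a median fold of 1.78 with a median standard error of 0.16. Among the higher genes 52 differed by under 1.5-fold, 94 by 1.5 to 2-fold, 63 by 2 to 4-fold and 18 by over 4-fold. For the lower genes these counts were 25, 50, 41 and 5. With a log2 fold change of at least 1 in either direction, 127 genes were left (1.03% of those tested), 81 higher and 46 lower. The smallest changes called were 0.35 (higher) and 0.36 (lower) on the log2 scale. These are minima among the genes called by this test and threshold, and no limit of detection was computed.

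**Figure D2:**
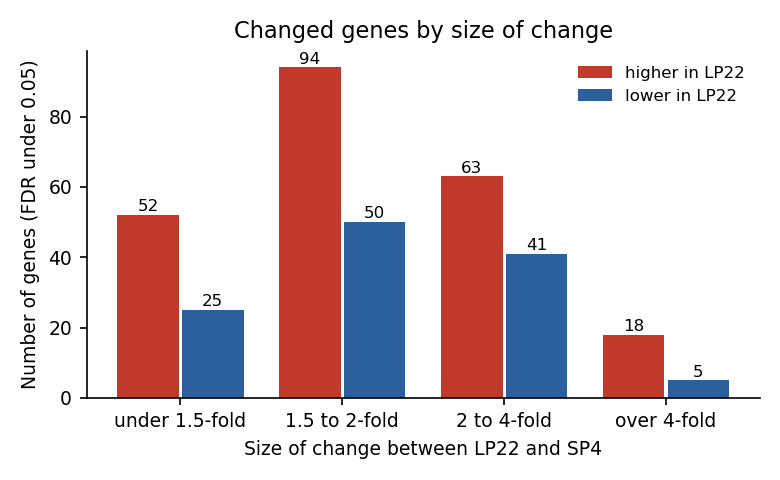
Bars give the number of genes with an FDR under 0.05 in each class of fold size between LP22 and SP4, red for higher and blue for lower in LP22, from 0 upwards. The most numerous class in both directions was 1.5 to 2-fold, with 94 and 50 genes.

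The changed genes spanned the range of expression. Their median level was 42.0 CPM for the higher and 34.0 CPM for the lower genes, against 20.7 CPM over all genes tested. The share called rose with level, from 1.34% of 2830 genes under 10 CPM to 2.17% of 4886 genes at 10 to 30 CPM and 4.03% of 3376 genes at 30 to 100 CPM. It stood at 5.72% of 962 genes at 100 to 300 CPM and at 4.98% of 261 genes at 300 CPM or more. In the called genes the median absolute log2 fold change went the other way, from 1.58 under 10 CPM to 0.56 at 100 to 300 CPM. At low level only large changes passed the test. At 300 CPM or more, 9 genes were higher and 4 lower in LP22. Few called genes lay at the floor in the low group. In 1 gene of the 227 every SP4 animal had 3 counts or fewer, and in none of the 121 (0 genes) did every LP22 animal. The share over all tested genes is not given, and genes removed by the filter on low counts are not covered. SP4 animal 1, with its libraries summed, reached 3 counts at a lower CPM than the others.

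Nearly all called genes separated the groups animal by animal. In 219 of the 227 genes every LP22 animal lay above every SP4 animal, and in 120 of the 121 every LP22 animal lay below. Over all tested genes, the groups did not overlap in 9.84%, with LP22 higher in 5.25% and lower in 4.59%. Because the test favours genes whose groups stand apart, these counts describe the called genes and are no further evidence for them.

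The gene with the highest log2 fold change, among called genes that averaged 10 CPM or more and showed no overlap between groups, was ENSOARG00000020127. In SP4 it was barely expressed, with 15, 8, 3 and 25 counts in animals 1 to 4, or 2.75, 3.43, 1.44 and 11.7 CPM. In LP22 it stood at 329.6, 285.1, 153.7 and 300.1 CPM, from 432 to 667 counts per animal. The lowest LP22 animal was 13.2 times the highest SP4 animal. The means were 4.82 ± 4.63 CPM in SP4 and 267.1 ± 77.8 CPM in LP22 (SD, n = 4 each). The log2 fold change was 5.91 (SE 0.39, edgeR quasi-likelihood FDR 7.17e-06), a fold of 60.1. Fitting all 16 animals together gave 5.83 with an FDR of 0.0683, the fit in which the call was lost.

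The same gene was also low after 16 weeks of SP. SP16 animals 1 to 4 stood at 7.99, 2.52, 2.88 and 21.8 CPM, on the TMM scale of the 8 animals extended to the others. Levels in LP4 were 557.9, 203.2 and 341.8 CPM in animals 1, 2 and 4. Animal 3 had 1.37 CPM from 5 counts, below every SP animal. LP4 animal 3 is a library that stands apart. Of its aligned reads 52.6% fell in genes. The first of the 2 libraries of LP4 animal 2 had 31.0%, and the remaining 16 libraries had 15.3% to 21.3%. Its value is given for completeness, and results that rest on LP4 are given with and without these 2 libraries. Levels of LP4 animal 2 are from both its libraries summed. With its repeat library alone it had 287.8 CPM of ENSOARG00000020127.

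ENSOARG00000007112 had the next highest log2 fold change under the same conditions. SP4 animals 1 to 4 held 18, 1, 7 and 7 counts, or 3.30, 0.43, 3.36 and 3.26 CPM. LP22 animals 1 to 4 stood at 63.2, 133.2, 32.7 and 97.2 CPM. Animal 3 of LP22 was the lowest of its group for this gene, as it was for ENSOARG00000020127. The means were 2.59 ± 1.44 CPM in SP4 and 81.6 ± 43.3 CPM in LP22 (SD, n = 4 each). The log2 fold change was 4.85 (SE 0.49, edgeR quasi-likelihood FDR 0.000196), or 28.9-fold, and the lowest LP22 animal was 9.73 times the highest SP4 animal. SP16 ran from 3.29 to 8.29 CPM and LP4 from 57.3 to 283.1 CPM, so every LP animal lay above every SP animal in all 4 groups, LP4 animal 3 included. LP4 animal 2 had 91.4 CPM, or 58.3 CPM with its repeat library alone.

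Under the same conditions (a called gene, 10 CPM or more, no overlap) the steepest fall was that of ENSOARG00000013347, an abundant transcript. SP4 animals 1 to 4 stood at 1442, 926.0, 1153 and 1154 CPM and LP22 animals 1 to 4 at 143.8, 142.5, 223.4 and 366.7 CPM. The groups did not overlap, and the lowest SP4 animal was 2.52 times the highest LP22 animal. Within LP22 the levels were uneven, with a coefficient of variation of 48.1% against 18.1% in SP4. The means were 1169 ± 212 CPM and 219.1 ± 105 CPM (SD, n = 4 each), and the log2 fold change was −2.41 (SE 0.27, edgeR quasi-likelihood FDR 0.000363). In SP16 it was higher still, at 1454 to 1553 CPM. Animals 1 and 4 of LP4, with 446.9 and 423.3 CPM, lay between the LP22 and SP4 ranges. Animal 2 of LP4, with 1170 CPM (1030 CPM with its repeat library alone), lay within the SP4 range and animal 3, with 1970 CPM, above it.

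ENSOARG00000003932 had the next steepest fall under these conditions, which leave out called genes of lower level that fell further. SP4 animals 1 to 4 stood at 40.0, 42.4, 40.8 and 42.4 CPM and LP22 animals 1 to 4 at 7.41, 11.1, 10.7 and 6.84 CPM, from 15 to 30 counts each. The lowest SP4 animal was 3.59 times the highest LP22 animal. The log2 fold change was −2.19 (SE 0.16, edgeR quasi-likelihood FDR 2.3e-05), from 41.4 ± 1.21 CPM in SP4 to 9.02 ± 2.20 CPM in LP22 (SD, n = 4 each). The tight SP4 spread hides a difference inside animal 1: its first library gave 71.7 CPM (127 counts) and its repeat library 25.0 CPM (91 counts). Each of the 2 values was above every LP22 animal. SP16 animals stood at 54.5, 46.9, 56.2 and 32.4 CPM, and LP4 animals 1 to 4 at 17.8, 28.2, 68.8 and 16.6 CPM. With its repeat library alone LP4 animal 2 had 19.6 CPM.

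**Figure D3:**
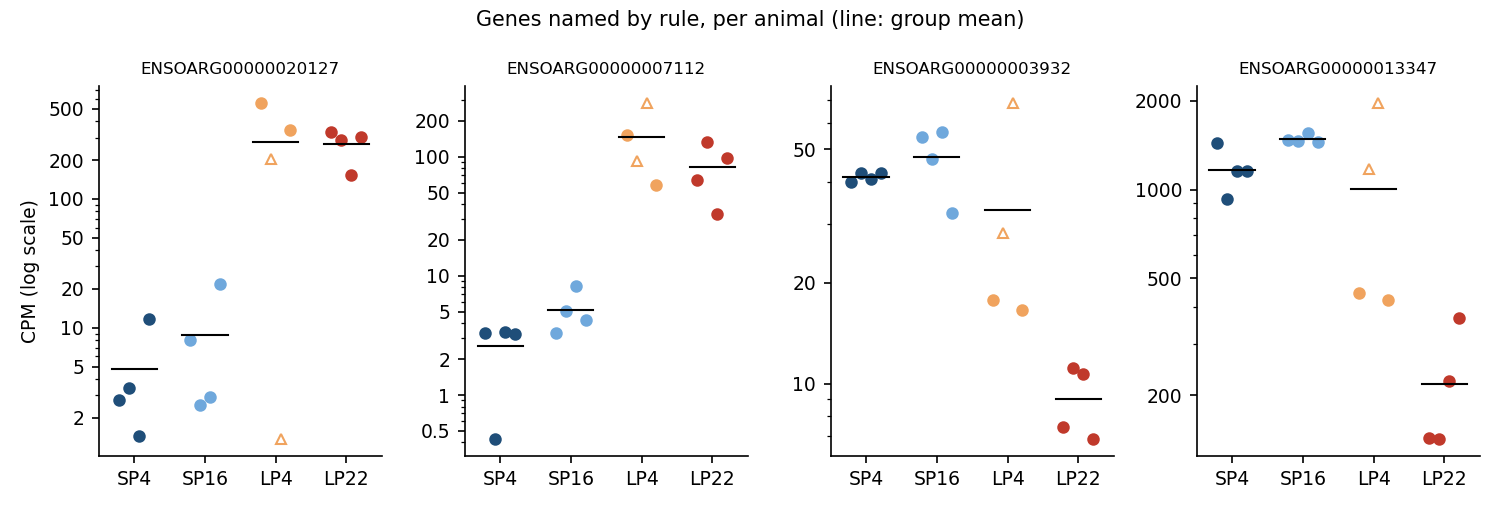
CPM on a log axis for the 4 named genes in each of the 16 animals, by group; lines are group means and open triangles are LP4 animals 2 and 3, which hold the libraries that stand apart. The 2 rising genes stand at up to 21.8 CPM in all 8 SP animals, and in both falling genes the LP22 animals are the lowest of all.

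With these 4 included, the same conditions (a called gene, at least 10 CPM, no overlap) were met by 302 genes, 194 higher and 108 lower in LP22. The third highest had a log2 fold change of 3.46, the fourth 2.15 and the twelfth 1.78. On the falling side the third had −2.12, the fourth −1.92 and the twelfth −1.52. Under these conditions the rise was steep for 3 genes and then levelled off, while the falls formed a gradual series. Over all called genes this shape was not seen. Rises of 3.76, 3.33, 3.27, 2.60, 2.50, 2.38 and 2.20 also lay above 2.15. Among the falls −3.15, the steepest, and −2.37 also lay below −2.12. Called genes under 10 CPM, 26 higher and 12 lower, reached log2 fold changes of 3.76 and −3.15.

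The animals of each group were compared over the called genes by the median log2 difference from the SP4 mean. For the 227 higher genes this median was 0.84, 0.88, 0.68 and 0.79 in LP22 animals 1 to 4, and for the 121 lower genes it was −0.89, −0.87, −0.79 and −0.76. Each LP22 animal lay on the LP22 side of the midpoint between the group means for 213 to 225 of the 227 and for 118 or 119 of the 121. Animal 3 had the lowest of these counts among the higher genes. SP4 animals crossed that midpoint in 0 to 13 of the 227 and in 0 to 3 of the 121. As LP22 and SP4 chose the genes, these values describe how evenly the 4 animals shared the change and test nothing.

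The other 2 groups took no part in choosing the genes. In SP16 the median difference from SP4 was 0.11, 0.05, 0.12 and 0.16 over the higher genes and −0.11, −0.10, −0.02 and −0.26 over the lower genes, in animals 1 to 4. SP16 thus lay near SP4, offset towards LP22 in all 4 animals. The SP4 levels took part in choosing the genes and the SP16 levels did not, and the part of that choice in the offset was not tested. The SP16 mean fell on the SP4 side of the midpoint for 201 of the 227 and 98 of the 121 genes. In LP4, animals 1 and 4 had medians of 0.70 and 0.58 over the higher genes and −0.60 and −0.52 over the lower genes. LP4 animal 2 stood at 0.50 and −0.42, or 0.58 and −0.55 with its repeat library alone, and LP4 animal 3 at −0.38 and −0.01. Without the 2 libraries that stand apart, the LP4 mean fell on the LP22 side for 175 of the 227 and 85 of the 121 genes. With them the counts were 103 and 58. Shares over all genes are not given for the midpoint counts of SP16 and LP4.

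**Figure D4:**
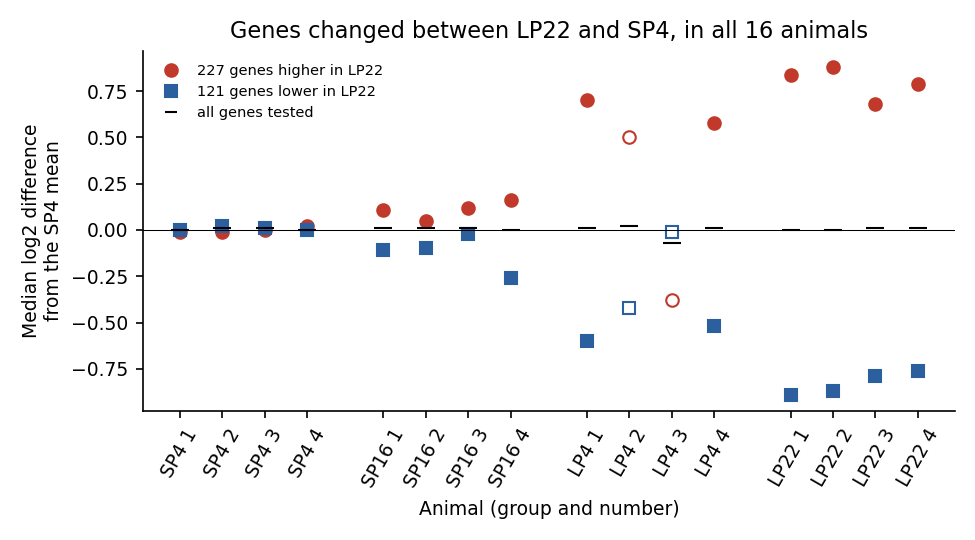
For each of the 16 animals, the median log2 difference from the SP4 mean over the 227 genes higher in LP22 (red circles), the 121 lower (blue squares) and all genes tested (black dashes); open symbols are LP4 animals 2 and 3. SP16 animals lie within 0.26 of 0. LP22 animals stand at 0.68 to 0.88 and −0.89 to −0.76, and LP4 animal 1, at 0.70, lies within the LP22 range over the higher genes.

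Counted gene by gene, 159 of the 227 higher genes put every LP22 animal above all 8 SP animals, and 87 of the 121 lower genes put every LP22 animal below them. Over all tested genes that held for 2.33% and 1.79%. In 647 tested genes every LP22 animal lay above every SP4 animal, and in 287 of these also above every SP16 animal. For lower levels in LP22 these counts were 565 and 221. The call largely fixed the separation of LP22 from SP4. These counts and those for every LP animal therefore describe the called genes and are no test of them. Every LP animal lay apart from every SP animal for 88 higher and 32 lower genes without the outlying LP4 libraries (1.02% and 0.471% of all genes), and for 38 and 15 with them (0.398% and 0.219%). The LP4 mean went beyond the LP22 mean, away from SP4, in 46 higher and 22 lower genes when the outlying libraries were left out, and in 45 and 30 with them. For those genes the level after 4 weeks of LP was at least as far from SP4 as after 22 weeks. The LP22 levels took part in choosing the genes and the LP4 levels did not. The part of that choice in these counts was not tested, and their share over all genes is not given.

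LP4 against SP16 is the one LP to SP comparison that shares no animal with LP22 against SP4. It was fitted on its own animals, 7 without the outlying libraries and 8 with them. Without them, 341 of the 348 genes were tested, and 309 (90.6%) had the same sign as between LP22 and SP4, against 57.6% of all 12137 genes tested in both. By direction, 200 of 221 higher genes and 109 of 120 lower genes kept their sign, where 50.8% of all genes were higher in LP4 and 49.2% lower. With all libraries, 241 of 338 (71.3%) had the same sign, against 52.0% of 12060 genes. The median log2 fold change between LP4 and SP16 without the outlying libraries was 0.46 for the higher genes and −0.50 for the lower genes, against 0.006 for all genes. With all libraries these medians were 0.37, −0.20 and 0.037, so the value of the lower genes depended on the libraries left out.

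In that fit of 7 animals 122 of 12755 genes changed (0.956%), 71 higher and 51 lower in LP4. Of these, 59 were among the 348, or 48.4% of the 122 and 17.3% of the 341, and all 59 changed in the same direction, 45 higher and 14 lower in LP. With all 8 animals edgeR's quasi-likelihood test called 0 genes (0%), while the unadjusted p was under 0.05 for 502, and DESeq2 called 25. Of the 4 named genes, ENSOARG00000020127 had a log2 fold change of 5.57 between LP4 and SP16 without the outlying libraries (SE 0.48, FDR 0.000359) and ENSOARG00000007112 had 4.04 (SE 0.41, FDR 0.000634). ENSOARG00000003932 fell by 1.40 on the log2 scale (SE 0.20, FDR 0.00576). ENSOARG00000013347 had −1.23 (SE 0.27), with an FDR of 0.0636 that missed the threshold. With all libraries none of the 4 passed the threshold. ENSOARG00000020127 then had 4.99 (SE 1.39, FDR 0.806) and ENSOARG00000007112 had 4.74 (SE 0.57, FDR 0.155). ENSOARG00000003932 had −0.57 (SE 0.45, FDR 0.806) and ENSOARG00000013347 had −0.61 (SE 0.48, FDR 0.806). These FDR values are from edgeR's quasi-likelihood test. Some genes had the opposite sign between LP4 and SP16. Without the outlying libraries, 5 higher genes had a log2 fold change there under −0.5 and 1 lower gene had one over 0.5. With all libraries these counts were 11 and 6. Opposite signs of smaller size are not in these counts.

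**Figure D5:**
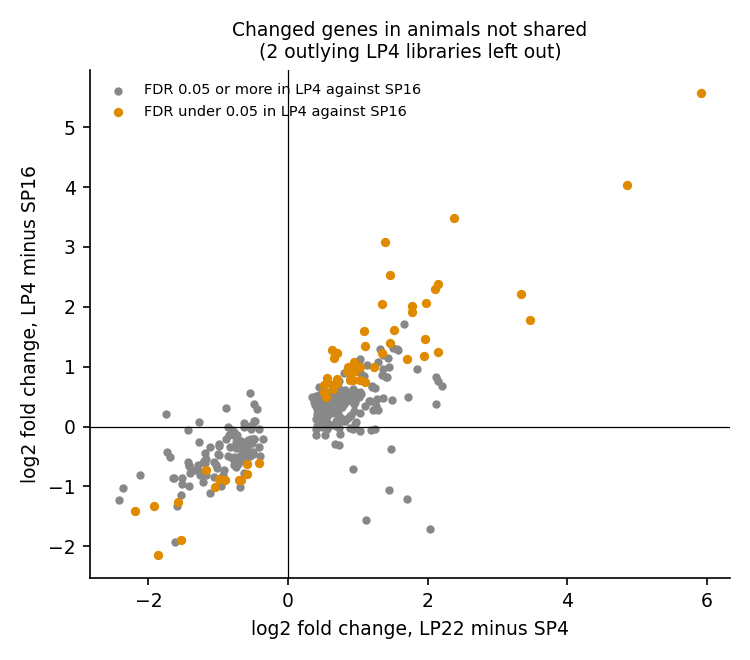
Each point is a gene called between LP22 and SP4, with that log2 fold change on the horizontal axis and the one between LP4 and SP16, without the 2 outlying LP4 libraries, on the vertical axis. Orange points are the 59 genes with an FDR under 0.05 in both; 309 of 341 points lie in the quadrants of equal sign.

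The 2 libraries of SP4 animal 1 were also used one at a time. With the first library alone 212 of the 227 higher and 106 of the 121 lower genes had no overlap between groups, and with the repeat library alone 219 and 117. Both libraries took part in calling these genes. The share over all tested genes with either library alone is not given, so these counts only describe the called genes. Among genes at 30 CPM or more, the first and repeat libraries differed by over 2-fold in 139 of 4599 genes (3.02%) and in 4 of the 204 called genes (1.96%). ENSOARG00000003932, at a mean of 25.2 CPM, was below that level and is not in these counts.

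Some wide differences between the group means did not pass the test. Of 1223 genes at 100 CPM or more, 21 had an absolute log2 fold change of at least 1, and 14 of those were called. The other 7 were looked at after their values were seen; 5 were higher in LP22 and 2 lower as fitted. For 4 of those 5 genes LP22 animal 2 was the highest of its group. Summed over the 5, the level was 9166 CPM in LP22 animal 2 and 1392 to 2293 CPM in the other LP22 animals, against 361 to 1488 CPM in SP4. The median log2 fold change of the 5 was 3.50 with that animal and 0.70 without it. LP22 animal 2 also lay farthest out on the first principal component of log2 CPM, which held 31.2% of the variance, at 35.4 where the other LP22 animals lay at 12.1 to 15.2 and SP4 animals at −24.5 to −7.3. Without that animal 239 genes were called, 211 of them among the 348.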

How the data were processed

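RNA of the PT was sequenced from total RNA. The authors aligned reads with Bowtie (build Oar_v3.1, per the submitters' processing notes), used SAMtools, and took counts with HTSeq. The deposited files hold these raw counts per gene, 1 library each. Tool versions, the feature type counted and the use of strand are not given in the sources used here, so overlapping, antisense and near-identical genes may share reads. The 5 HTSeq summary lines stayed out of library sizes and tests, and reads in no feature were 81.2% to 84.5% of aligned reads in the 9 libraries.

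First and repeat libraries of an animal were summed. In edgeR 4.0.16 (R 4.3.3), filterByExpr chose the genes tested (10 counts, total 15), TMM scaled them, and glmQLFit and glmQLFTest compared LP22 with SP4 on the 8 animals, 2-sided, with Benjamini-Hochberg adjustment. The SE was derived from the F statistic. LP4 against SP16 was fitted likewise. Levels in LP4 and SP16 used TMM factors against the reference animal of the 8. Differences per animal used log2 of CPM plus 0.5, and principal components log2 CPM with a prior count of 2. The floor of 3 counts was 0.551 CPM in SP4 animal 1 and 1.07 to 1.76 CPM in the other 7, for counting error only. P-values weigh the group difference against the spread between these samples, which edgeR estimates with information shared across genes. The steps were run on simulated counts with the same spread for all genes and no outlying animal. That run does not cover uneven spread or outlying animals. Figures used matplotlib 3.10.9 in Python 3.11.15.

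Named genes were the 2 IDs at each end of the log2 fold change, among called genes with a mean of 10 CPM or more and no overlap; lists by symbol were not applied, as names were sought in the deposited files and reference table alone. The comparison, rule and settings were chosen with earlier results of these data known. Alternatives were RLE and upper-quartile scaling, DESeq2 1.42.0, the edgeR exact test, a robust fit, 2 other filters, either library of SP4 animal 1 alone, 2 fits of all 4 groups, a stricter FDR, the animal number as a block, and leaving out each animal.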

Additional observations from a re-analysis of the deposited data

Results flagged for a closer look

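In 14 sets of 4 animals (the 4 named genes, the total count, the share of reads in genes and the TMM factor in each group), a value far from the other 3 was found 2 times, where 0.7 would be found by chance. SP4 animal 2 had 0.429 CPM of ENSOARG00000007112, from 1 count, and animals 1, 3 and 4 of the group had 3.26 to 3.36 CPM. The total gene count of SP4 animal 1 was 5850281 with its repeat library, above 2008884 to 2334377 in the others. That value follows from summing 2 libraries for this animal alone, so 2 against 0.7 does not show an excess. Reads assigned to no feature lie outside all comparisons here and were a median of 83.2% of aligned reads over the 9 libraries.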

How the results depend on the processing

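The count of 348 genes stayed within 1.5 times under RLE scaling (349), upper-quartile scaling (351), DESeq2 (379), the robust fit, both other filters, either library of SP4 animal 1 alone and the 4-group fit without the outlying LP4 libraries. It moved to 558 with the edgeR exact test, 135 at an FDR under 0.01 and 24 with all 16 animals in the fit, of which 22 were among the 348. The count of 127 genes with a log2 fold change of at least 1 moved to 196 with no filter on low counts and 24 with all 16 animals. Leaving out 1 animal gave 220 to 339 genes and 101 to 142 with a log2 fold change of at least 1. The 220, without SP4 animal 2, was the one beyond 1.5 times. Membership moved as well as size: these fits kept 210 to 255 of the 348. Without SP4 animal 1, 339 genes were called and 255 of them were among the 348. The first library of that animal alone gave 372 genes, 295 of them among the 348, and the repeat library alone 299, with 294. With the replicate block the count was 231; deviations of same-numbered LP22 and SP4 animals correlated at −0.108 to −0.022, so the numbers were not taken as pairs, and no animal correlated best with its own number. LP4 against SP16 called 0 genes, but 122 without the outlying libraries, 25 with DESeq2 and 0 to 120 when 1 animal was left out, the 120 without LP4 animal 3; genes of the 348 with the same sign there numbered 210 to 309. Leaving out animals of LP4 and SP16 was added after the data were seen. Over 20 alternatives each, the 4 named genes kept direction, and ENSOARG00000020127 alone lost its call, in the fit of 16 animals (5.83, FDR 0.0683 by edgeR); the highest FDR of the others was 0.0303. Named levels under 5 CPM rest on few counts, so the size of those folds is less sure than their direction.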
